A study of Bos taurus with 7 samples.

Results

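Genes of Wnt signaling were followed in whole bovine follicles at the secondary (SF) and the primary (PF) stage. The list holds 56 genes named for their place in the pathway. The rule that lists them uses no measured value, but members were chosen with earlier results of these data known. It has 20 ligands and their partners (16 *WNT* genes, 3 R-spondins and the acyltransferase *PORCN*), 13 receptors and co-receptors, 15 inhibitors and 8 effectors. Of the 56 genes, 54 had at least 1 quantified transcript that could be matched to them, out of 23704 genes with a matched transcript in all. *WNT8B* and *WNT10A* had none and were not analysed here.

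Wnt proteins are secreted lipid-modified ligands that bind Frizzled receptors together with the co-receptors LRP5 and LRP6. In the canonical branch, binding recruits the Dishevelled proteins, stops a complex of AXIN, APC and GSK3B from marking beta-catenin for degradation, and lets beta-catenin act on TCF/LEF transcription factors at target genes. R-spondins raise the sensitivity of a cell by taking the ubiquitin ligases ZNRF3 and RNF43, which remove Frizzled, off its surface. In the ovary, as studied in mice, the pathway is known for its part in ovarian differentiation and in granulosa cells.

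RNA sequencing was done on 3 SF and 4 PF libraries of *Bos taurus*, taken at T0, that is, after collection and a short recovery. SF have several layers of granulosa cells around the oocyte, and PF have a single cuboidal layer. Abattoir ovaries of young Holstein Friesian dairy cows had been homogenized, and follicles were sieved by size and picked under a stereomicroscope. The follicles were kept for this recovery in warm medium with insulin and FSH, and pooled by stage. The animals behind a given library are not named, so a p-value reflects the spread among these pools alone, part of which may be technical. Each library held whole follicles, and RNA of the oocyte and the granulosa cells was measured together. Fewer cells of a type and less RNA per cell therefore cannot be told apart in any value below.

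Values are given in TPM, a relative transcript abundance that corrects for transcript length and sums to the same total in every library. Tests compared the 3 SF libraries with PF replicates 1 to 3, because PF replicate 4 had been set aside as an outlier by the original analysis. A gene is called when its DESeq2 adjusted p (Wald test, Benjamini-Hochberg over all genes) is below 0.05. Each fold change is a log2 ratio of SF to PF with its standard error, so that a positive value is higher in SF. PF replicate 4 is given beside them and entered no test unless said.

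The libraries held 18788105 to 23764615 estimated counts, and 12188 to 13034 genes reached 1 TPM. The labelled tissue carried its markers, with 0 of the 21 matched oocyte markers and 0 of the 20 granulosa markers at 0 in all 6 libraries tested. The balance of these cell types differed between the groups. The 21 oocyte markers summed to 259 to 1926 TPM in SF and 2782 to 5679 TPM in PF replicates 1 to 3, and 15 of the 21 tested were called lower in SF. The 20 granulosa markers summed to 7587 to 8635 TPM in SF and 2197 to 3463 TPM in PF, and 11 of the 17 tested were called higher. PF replicate 4 stood apart, with 6372 TPM over 14 stromal fibroblast markers, against 230 to 541 TPM in SF and 449 to 645 TPM in the other PF libraries. Its oocyte markers summed to 531 TPM, below all libraries except SF replicate 3, which had the lowest sum at 259 TPM.

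Of the 54 matched Wnt genes, 48 received an adjusted p, and 18 of them were called, 6 higher and 12 lower in SF. That is 37.5% of those tested, where 19.1% of the 15056 genes tested were called, 8.14% higher and 11.0% lower. The genes higher in SF were the ligands *WNT2B*, *WNT5A* and *WNT6*, the receptor *FZD1*, the co-receptor *LRP5* and the inhibitor *ZNRF3*. Those lower in SF were the ligands *WNT3* and *WNT7A*, the R-spondins *RSPO1* and *RSPO2*, the receptor *FZD10*, the inhibitors *SFRP1*, *DKK2*, *DKK3* and *RNF43*, and the effectors *DVL2*, *DVL3* and *TCF7L1*. The median log2 fold change of the 48 genes was 0.41, and that of all genes tested was 0.02. The TPM of the groups did not overlap for 21 of the 48 genes, 9 with all SF libraries above and 12 with all below, where 32.7% of all genes tested did not overlap, 14.3% above and 18.5% below. The edgeR quasi-likelihood test called 0 genes of 14293 (0.00%), and so none of the 18 Wnt genes. At an unadjusted p below 0.05 it found 3844 genes, all 18 of these among them, where DESeq2 found 4800.

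**Figure D1:**
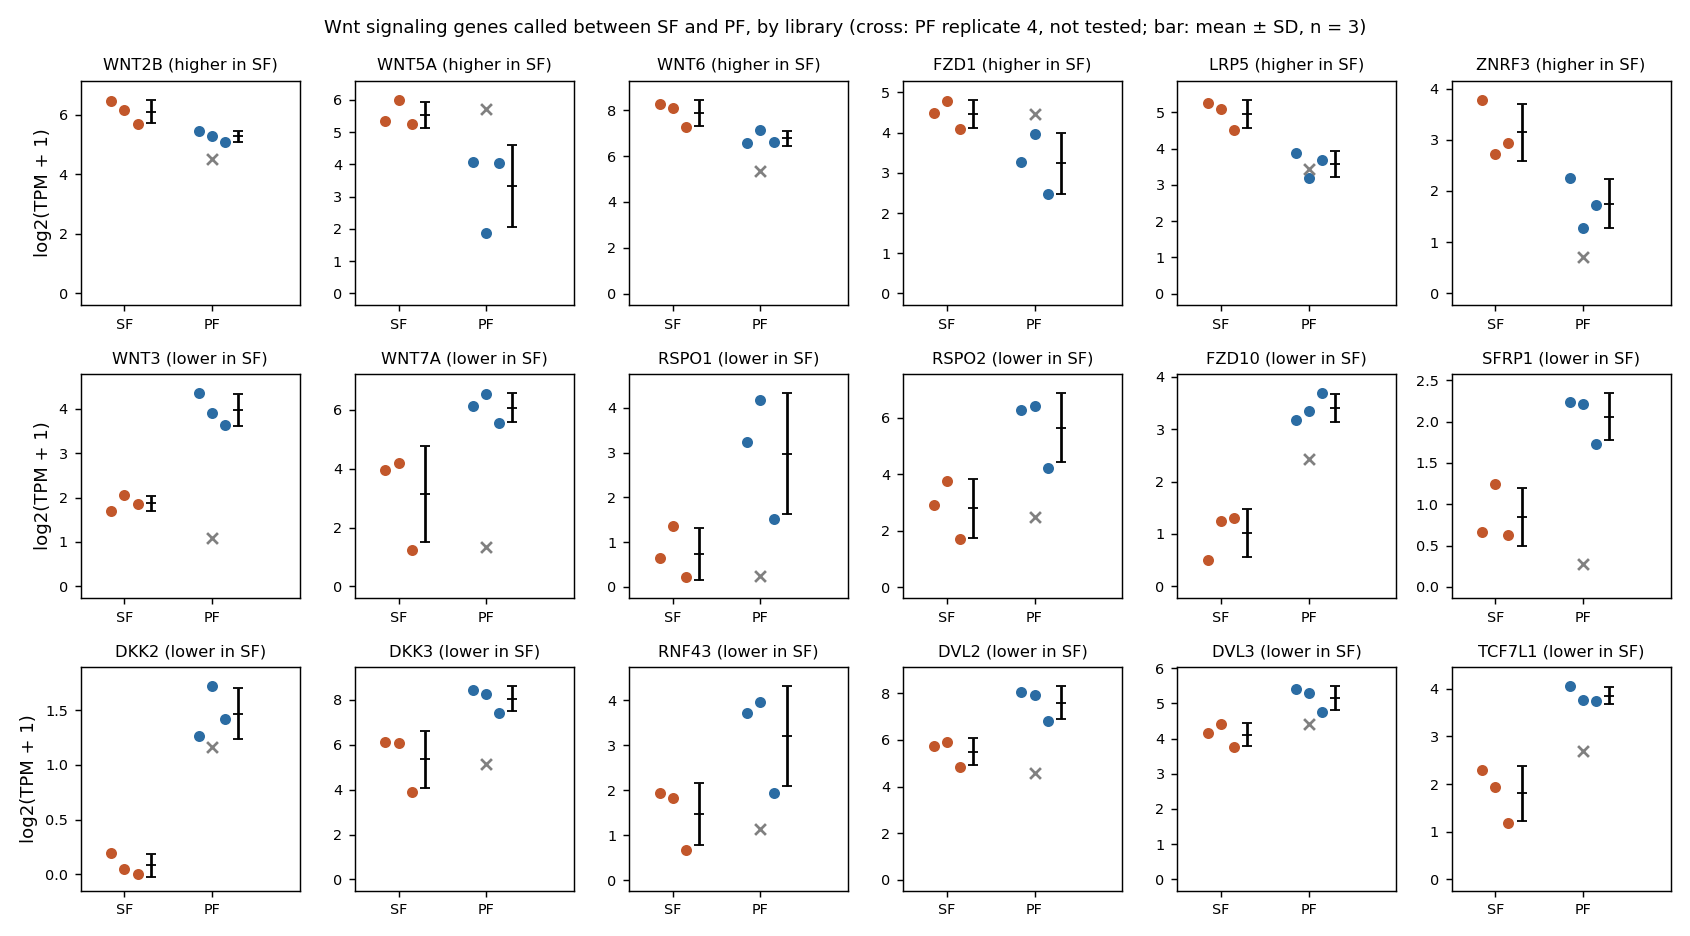
Level of the 18 called Wnt genes in each library as log2(TPM + 1), SF left of PF in each panel. Dots are SF replicates 1 to 3 and PF replicates 1 to 3 in order from left to right, the bar beside them is their mean ± SD (n = 3 each), and the cross is PF replicate 4. In 17 of the 18 panels the SF and PF dots do not overlap, the exception being *RNF43*. The panels were chosen by their calls on these same libraries, which favours this, and 32.7% of all genes tested do not overlap. In 8 panels (*WNT5A*, *FZD1*, *WNT7A*, *RSPO1*, *RSPO2*, *DKK3*, *RNF43* and *DVL3*) the cross lies within the range of the SF dots.

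Among the ligands, *WNT6*, *WNT2B* and *WNT5A* were higher in SF, and *WNT3*, *WNT7A*, *RSPO1* and *RSPO2* were lower. Of 14 ligands and partners tested, 3 were called higher and 4 lower. *WNT6*, a ligand, had 307, 276 and 151 TPM in SF replicates 1 to 3, against 94.5, 140 and 95.7 TPM in PF replicates 1 to 3 and 40.1 TPM in PF replicate 4. Every SF library lay above every PF library, and the lowest SF value was close to the highest PF value (log2 fold change 1.24 ± 0.37, DESeq2 adjusted p = 0.0081). *WNT2B*, another ligand, had 86.9, 71.4 and 51.4 TPM in SF, against 43.1, 38.0 and 32.9 TPM in PF and 21.9 TPM in PF replicate 4. The groups did not overlap (0.98 ± 0.29, DESeq2 adjusted p = 0.0070). *WNT5A*, best known for beta-catenin-independent signaling, had 39.6, 62.3 and 37.1 TPM in SF, against 15.9, 2.65 and 15.3 TPM in PF. It rose by the largest factor of the 3 (2.27 ± 0.67, DESeq2 adjusted p = 0.0074), but PF replicate 4, at 51.8 TPM, lay within the SF range, and with all 7 libraries the call ended (DESeq2 adjusted p = 0.39). Leaving out 1 library ended the call of *WNT6* in the fits that lacked SF replicate 2 (DESeq2 adjusted p = 0.064) or PF replicate 1 (0.065), of *WNT2B* without PF replicate 2 (0.058) and of *WNT5A* without SF replicate 2 (0.077).

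*WNT5A* had reads on 4 transcript models. Its 5563-base model had 12.8, 31.4 and 18.2 TPM in SF, against 0, 1.57 and 0 TPM in PF and 8.93 TPM in PF replicate 4. The 1706-base model had 12.7, 15.3 and 12.4 TPM in SF, against 8.31, 1.08 and 5.05 TPM in PF and 24.8 TPM in PF replicate 4. A 5539-base model had 14.0, 15.4 and 6.11 TPM in SF, against 7.63, 0 and 10.3 TPM in PF and 18.1 TPM in PF replicate 4. SF lay above PF replicates 1 to 3 in the first and the second of these models, while the 5539-base model overlapped between the groups. How reads are split between overlapping models of a gene is an estimate of the quantification and was not tested per model.

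*WNT3* and *WNT7A*, both known as canonical ligands, were lower in SF. *WNT3* had 2.25, 3.13 and 2.62 TPM in SF, against 19.4, 14.1 and 11.4 TPM in PF. The groups were far apart, although PF replicate 4, at 1.13 TPM, lay below all SF libraries (-2.18 ± 0.42, DESeq2 adjusted p = 1.3e-05). *WNT7A* had 14.5, 17.4 and 1.37 TPM in SF, against 69.4, 91.5 and 45.8 TPM in PF and 1.50 TPM in PF replicate 4. The lowest values, in SF replicate 3 and PF replicate 4, were those of the libraries with the lowest oocyte marker sums (-2.56 ± 0.78, DESeq2 adjusted p = 0.010). Among the called Wnt genes, *RSPO1*, *RSPO2*, *SFRP1*, *RNF43*, *DKK3* and *DVL2* were also lowest in these libraries, and a link to the oocyte markers was not tested. The *WNT7A* call ended without PF replicate 2 (DESeq2 adjusted p = 0.081), and with all 7 libraries the calls of *WNT3* and *WNT7A* both ended (0.15 and 0.24).

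The R-spondins *RSPO1* and *RSPO2*, which amplify Wnt signaling, were lower in SF. *RSPO2* had 6.44, 12.6 and 2.22 TPM in SF, against 75.5, 84.6 and 17.8 TPM in PF and 4.59 TPM in PF replicate 4. SF and PF did not overlap, and PF replicate 3 was the low library of its group (-2.89 ± 0.71, DESeq2 adjusted p = 1.0e-03). *RSPO1*, which is needed for ovarian development in mice, had 0.551, 1.58 and 0.159 TPM in SF, against 8.45, 17.1 and 1.84 TPM in PF and 0.174 TPM in PF replicate 4. The same order of libraries was seen, with little room between the highest SF and the lowest PF library (-3.23 ± 0.97, DESeq2 adjusted p = 0.0088). *RSPO3* was low, at 0.653 to 4.06 TPM in SF and 0 to 1.42 TPM in PF, and was not called. The 3 genes summed to 9.96 ± 6.45 TPM in SF and 69.2 ± 42.6 TPM in PF (SD, n = 3 each), a 0.144-fold level. The *RSPO1* call ended without PF replicate 2 (log2 fold change -2.55, DESeq2 adjusted p = 0.13), and without SF replicate 2 the log2 fold changes of *RSPO1* and *RSPO2* were -4.35 and -3.51. With all 7 libraries the calls of *RSPO1* and *RSPO2* ended (DESeq2 adjusted p = 0.14 and 0.072). *RSPO1* also lost its call when the library number, split at 40, was a covariate (0.062).

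The other ligands did not pass the test or could not be tested. *WNT11* had 5.76 to 10.2 TPM in SF, against 3.30 to 4.56 TPM in PF and 56.9 TPM in PF replicate 4. *WNT9A* had 3.16 to 5.89 TPM in SF and 1.19 to 2.83 TPM in PF. In both the 3 SF libraries lay above the 3 PF libraries, with log2 fold changes of 1.17 ± 0.50 and 1.08 ± 0.57 (DESeq2 adjusted p = 0.080 and 0.17). *WNT5B* had 4.24, 1.32 and 0 TPM in SF, against 44.4, 27.9 and 1.70 TPM in PF and 226 TPM in PF replicate 4, the library with the high stromal markers. The groups overlapped (-3.43 ± 1.42, DESeq2 adjusted p = 0.070). *PORCN*, which attaches the lipid to Wnt proteins, had 5.61 to 12.3 TPM in SF and 3.13 to 9.46 TPM in PF. *WNT2*, *WNT4* and *WNT10B* did not reach 3 TPM in any of the 6 libraries, and *WNT3A*, *WNT7B* and *WNT16* stayed below 1 TPM in all 6. *WNT4*, a ligand needed for ovarian development in mice, had 2.19 TPM in SF replicate 2 and 2.54 TPM in PF replicate 1 and was at 0 in the other libraries. A gene at 0 can still have reads on a transcript that was not matched.

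**Figure D2:**
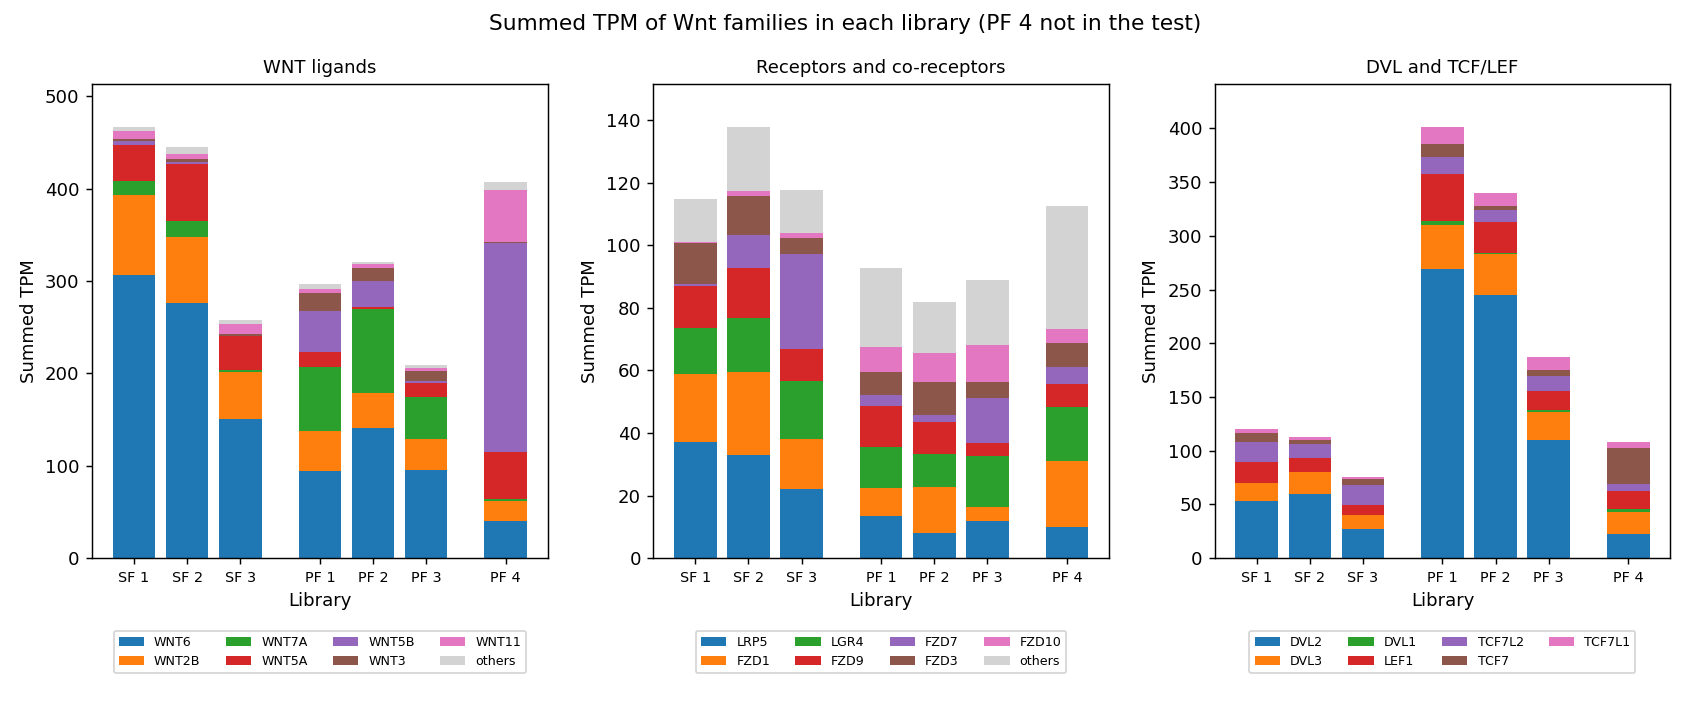
Summed TPM of the *WNT* ligands (left), of the receptors and co-receptors (middle) and of the Dishevelled and TCF/LEF effectors (right) in each library, with SF left of PF and PF replicate 4 set apart at the right. Colours are genes. *WNT6* makes up 62.7% of the SF ligand sum and 40% of the PF ligand sum, the receptor bars are higher in all 3 SF libraries than in PF replicates 1 to 3, and *DVL2* is the main part of the taller PF bars at the right.

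Summed over the 14 matched *WNT* genes, the ligands reached 467, 446 and 258 TPM in SF, against 297, 321 and 209 TPM in PF and 407 TPM in PF replicate 4. SF replicate 3 lay within the PF range, so the groups overlapped in the sum (1.42-fold). *WNT6* held 62.7% of the SF sum and 40% of the PF sum. In PF replicate 4 the sum was mainly *WNT5B*.

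Receptors had a higher summed level in SF, to which a few members contributed most. Of 12 receptors tested, 2 were called higher and 1 lower. The 13 genes summed to 115, 138 and 118 TPM in SF, against 92.6, 82.0 and 89.0 TPM in PF and 112 TPM in PF replicate 4, so that SF lay above PF replicates 1 to 3 (1.41-fold). *LRP5*, a co-receptor of the canonical branch, had 37.1, 32.9 and 22.0 TPM in SF, against 13.6, 8.09 and 11.8 TPM in PF and 9.91 TPM in PF replicate 4. All SF libraries lay above all 4 PF libraries (1.54 ± 0.36, DESeq2 adjusted p = 5.7e-04). *LRP6*, its close relative, had 3.95, 5.67 and 4.43 TPM in SF, against 2.43, 2.08 and 4.85 TPM in PF and 5.39 TPM in PF replicate 4. *LRP6* overlapped between the groups and was not called (0.63 ± 0.52, DESeq2 adjusted p = 0.43), and the difference between the responses of *LRP5* and *LRP6* was not tested. *LRP5* made up 86.7% of the summed TPM of the pair in SF and 78.2% in PF.

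*FZD1* was the Frizzled receptor with the highest mean level in SF, and *FZD10* the one that fell. *FZD1* had 21.6, 26.5 and 16.1 TPM in SF, against 8.72, 14.6 and 4.52 TPM in PF. The groups did not overlap, yet PF replicate 4, at 21.2 TPM, lay within the SF range (1.33 ± 0.47, DESeq2 adjusted p = 0.028). *FZD10* had 0.412, 1.37 and 1.49 TPM in SF, against 7.99, 9.19 and 11.9 TPM in PF and 4.39 TPM in PF replicate 4. All SF libraries lay below all 4 PF libraries (-3.07 ± 0.69, DESeq2 adjusted p = 3.3e-04). *FZD1* lost its call when PF replicate 1, PF replicate 3, SF replicate 1 or SF replicate 2 was left out (DESeq2 adjusted p = 0.14, 0.051, 0.082 and 0.15) and with all 7 libraries (0.45), whereas *FZD10* passed in each of these fits.

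The other Frizzled receptors overlapped between the groups and were not called. *FZD9* had 10.4 to 16.0 TPM in SF and 4.26 to 13.3 TPM in PF, and *FZD3* had 5.24 to 12.9 TPM in SF and 4.82 to 10.6 TPM in PF. *FZD7* spread most, with 0.808, 10.5 and 30.2 TPM in SF, against 3.56, 2.21 and 14.4 TPM in PF. Its high values were in libraries with a number above 40. *FZD6* had 1.78 to 5.27 TPM in SF and 5.24 to 8.85 TPM in PF, and *FZD5* had 3.97 to 5.74 TPM in SF and 3.23 to 4.81 TPM in PF. *FZD4* and *FZD8* stayed below 6 TPM in the 6 libraries, and *FZD2*, at 8.06 TPM in PF replicate 1 and 0 to 2.15 TPM in the other libraries, received no adjusted p. The 10 Frizzled genes summed to 71.3 ± 11.6 TPM in SF and 60.2 ± 3.82 TPM in PF (SD, n = 3 each). *LGR4*, a receptor for R-spondins, had 14.7, 17.3 and 18.5 TPM in SF, against 13.1, 10.7 and 16.3 TPM in PF and 17.0 TPM in PF replicate 4. The groups overlapped, and the 95% interval of its log2 fold change ran from -0.32 to 1.16 (0.42 ± 0.38, DESeq2 adjusted p = 0.47).

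Inhibitors had a lower summed level in SF through *DKK3*, while the other inhibitors together were not lower on average. Of 14 inhibitors tested, 1 was called higher and 4 lower. The 15 genes summed to 149 ± 31.0 TPM in SF and 356 ± 123 TPM in PF (SD, n = 3 each), with all SF libraries below PF replicates 1 to 3. Within this sum *DKK3* averaged 49.6 TPM in SF and 277 TPM in PF, a larger fall than that of the whole sum. *DKK3*, a secreted member of the Dickkopf family whose relation to Wnt receptors is less clear than that of DKK1 and DKK2, had 68.5, 66.6 and 13.8 TPM in SF, against 351, 312 and 169 TPM in PF and 34.9 TPM in PF replicate 4. It was the most abundant inhibitor in PF replicates 1 to 3 and fell without overlap (-2.39 ± 0.57, DESeq2 adjusted p = 7.6e-04). *DKK2*, a ligand of LRP5 and LRP6, had 0.147, 0.035 and 0 TPM in SF, against 1.40, 2.30 and 1.67 TPM in PF and 1.25 TPM in PF replicate 4. These are 5, 1 and 0 estimated counts in SF, against 41, 68 and 49 in PF and 33 in PF replicate 4, so the SF level rests on few counts (-4.77 ± 1.35, DESeq2 adjusted p = 0.0051). *SFRP1*, a secreted protein that binds Wnt ligands, had 0.591, 1.38 and 0.541 TPM in SF, against 3.71, 3.62 and 2.32 TPM in PF. The groups did not overlap, while PF replicate 4 was lowest of all at 0.214 TPM (-1.87 ± 0.58, DESeq2 adjusted p = 0.011). *DKK3* passed without each of the 6 libraries in turn but not with all 7 libraries (DESeq2 adjusted p = 0.090). *DKK2* lost its call without PF replicate 2 (0.061), and its fold change was -6.59 without SF replicate 1. *SFRP1* lost its call when PF replicate 1, PF replicate 2, SF replicate 1 or SF replicate 3 was left out (DESeq2 adjusted p = 0.068, 0.075, 0.055 and 0.062) and with all 7 libraries (0.34).

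The paired ubiquitin ligases *ZNRF3* and *RNF43* moved in opposite directions. *ZNRF3* had 12.6, 5.60 and 6.65 TPM in SF, against 3.74, 1.43 and 2.31 TPM in PF and 0.628 TPM in PF replicate 4. All SF libraries lay above all 4 PF libraries (1.86 ± 0.54, DESeq2 adjusted p = 0.0062). *RNF43* had 2.82, 2.52 and 0.603 TPM in SF, against 12.1, 14.6 and 2.82 TPM in PF and 1.19 TPM in PF replicate 4. SF replicate 1 and PF replicate 3 were at the same level, which makes it the only called Wnt gene whose groups overlapped (-2.10 ± 0.74, DESeq2 adjusted p = 0.027). The *ZNRF3* call ended without SF replicate 1 (DESeq2 adjusted p = 0.060). That of *RNF43* ended when PF replicate 1, PF replicate 2, SF replicate 2 or SF replicate 3 was left out (DESeq2 adjusted p = 0.13, 0.17, 0.079 and 0.096), with all 7 libraries (0.23) and when the library number, split at 40, was a covariate (0.11). The difference between the responses of *ZNRF3* and *RNF43* was itself not tested.

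The remaining inhibitors were not called. *AXIN1*, the scaffold of the beta-catenin destruction complex, had 13.8, 10.4 and 24.0 TPM in SF, against 24.3, 11.1 and 7.23 TPM in PF and 12.0 TPM in PF replicate 4. The groups overlapped, and the sign of its fold change rested on SF replicate 3 (0.41 ± 0.57, DESeq2 adjusted p = 0.67, and -0.05 without that library). *GSK3B*, the kinase of the complex, had 19.1, 38.8 and 31.4 TPM in SF, against 17.9, 29.2 and 21.0 TPM in PF and 34.2 TPM in PF replicate 4. The groups overlapped here too (0.48 ± 0.33, DESeq2 adjusted p = 0.32). *AXIN2*, which is both an inhibitor and a widely used target gene of the canonical branch, had 8.05, 9.25 and 8.44 TPM in SF, against 4.26, 9.70 and 1.56 TPM in PF and 2.81 TPM in PF replicate 4. Its SF libraries were close together and PF replicate 2 lay above them (0.87 ± 0.65, DESeq2 adjusted p = 0.37). *SFRP4* had 12.6 to 29.2 TPM in SF and 0 to 17.2 TPM in PF, *NKD1* had 2.38 to 12.8 TPM in SF and 2.30 to 12.1 TPM in PF, and *APC* and *NKD2* were at or below 2.27 TPM. *DKK1* had 0 to 3.21 TPM in SF and 0 to 8.63 TPM in PF. *SFRP5* was below 1 TPM outside PF replicate 1, and *SFRP2* stayed below 1 TPM in the 6 libraries tested but had 1217 TPM in PF replicate 4.

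Among the effectors, the Dishevelled genes *DVL2* and *DVL3* and the factor *TCF7L1* were lower in SF, while beta-catenin RNA was not called. Of the 8, 0 were called higher and 3 were called lower. *DVL2*, which relays the signal from Frizzled, had 52.9, 59.3 and 27.3 TPM in SF, against 269, 245 and 110 TPM in PF and 22.8 TPM in PF replicate 4. It was the most abundant Dishevelled gene in both groups and fell without overlap (-2.04 ± 0.41, DESeq2 adjusted p = 4.5e-05). *DVL3* had 16.7, 20.5 and 12.6 TPM in SF, against 41.2, 37.8 and 26.1 TPM in PF and 20.4 TPM in PF replicate 4. Its fall was smaller, again without overlap between SF and PF replicates 1 to 3 (-0.95 ± 0.27, DESeq2 adjusted p = 0.0047). *DVL1* was low, at 0.584, 0.741 and 0.351 TPM in SF, against 3.42, 1.36 and 1.32 TPM in PF, and did not pass (-1.76 ± 0.74, DESeq2 adjusted p = 0.077). *TCF7L1*, a TCF factor best known as a repressor of target genes, had 3.93, 2.82 and 1.27 TPM in SF, against 15.6, 12.7 and 12.4 TPM in PF and 5.50 TPM in PF replicate 4. All SF libraries lay below all 4 PF libraries (-2.26 ± 0.50, DESeq2 adjusted p = 2.5e-04). *DVL2*, *DVL3* and *TCF7L1* passed without each of the 6 libraries in turn, and with all 7 libraries only *TCF7L1* of the 3 did (DESeq2 adjusted p = 0.0057, against 0.14 for *DVL2* and 0.077 for *DVL3*).

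*CTNNB1*, which encodes beta-catenin, was the most abundant effector. It had 214, 408 and 510 TPM in SF, against 209, 224 and 225 TPM in PF and 466 TPM in PF replicate 4. SF replicate 1 lay within the narrow PF range and SF replicates 2 and 3 above it, and the gene did not pass (0.92 ± 0.43, DESeq2 adjusted p = 0.12). It passed without SF replicate 1 (1.21, DESeq2 adjusted p = 0.0069). Its 3347-base model held 110, 295 and 385 TPM in SF, against 67.6, 64.6 and 150 TPM in PF and 199 TPM in PF replicate 4. The other TCF/LEF genes were not called. *LEF1* had 19.5, 12.4 and 8.78 TPM in SF, against 44.4, 28.8 and 17.7 TPM in PF (-1.01 ± 0.46, DESeq2 adjusted p = 0.11). *TCF7L2* had 13.5 to 18.5 TPM in SF and 10.4 to 15.7 TPM in PF, and *TCF7* had 3.13 to 8.58 TPM in SF and 3.82 to 12.2 TPM in PF.

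**Figure D3:**
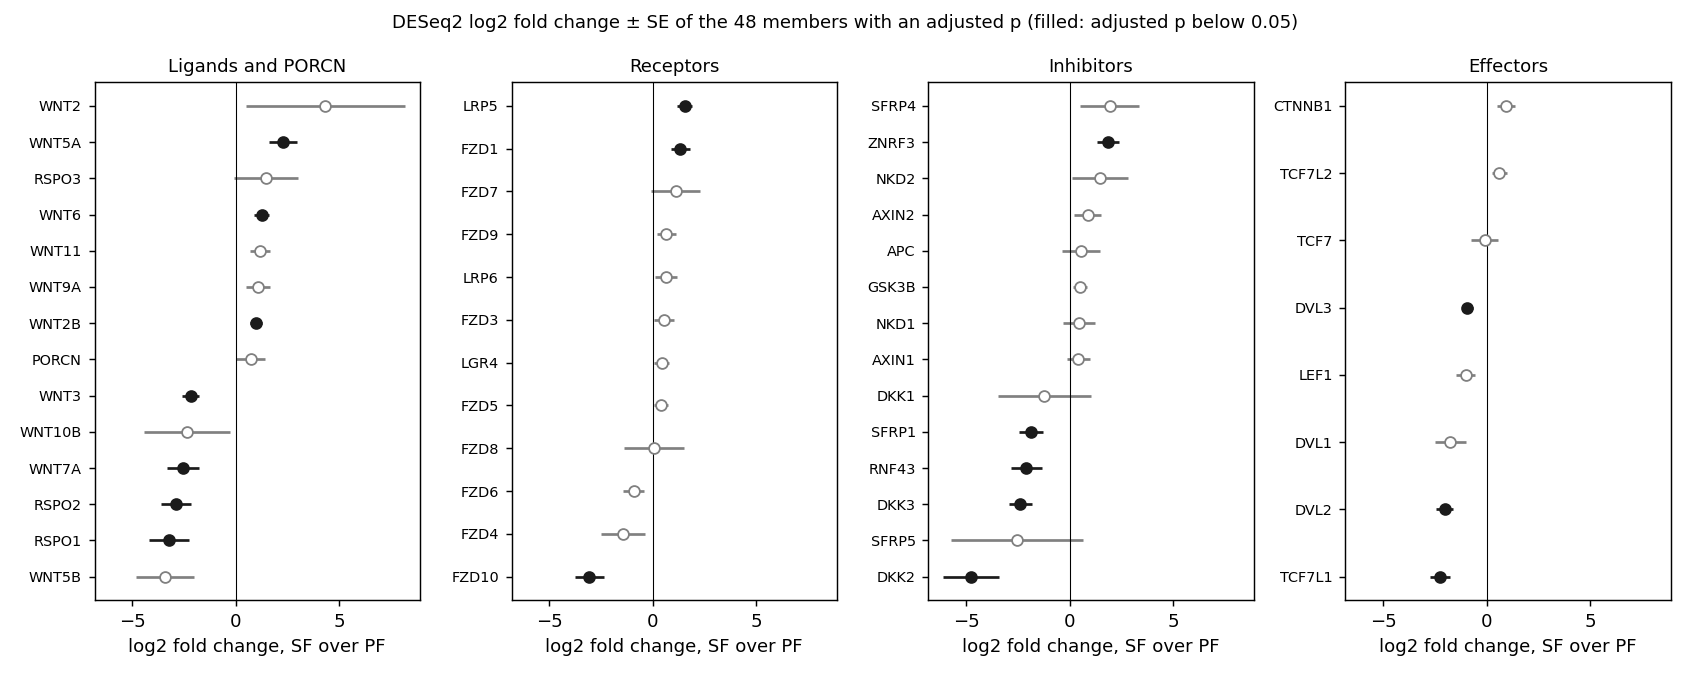
Log2 fold change of SF over PF for the Wnt genes that received an adjusted p, by role, with bars for ± SE from DESeq2 (3 SF and 3 PF libraries). Filled symbols are the 18 called genes, 6 to the right of 0 and 12 to the left, and *DKK2*, *RSPO1* and *FZD10* lie farthest left among them.

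Called genes were 7 of 14 ligands and partners, 3 of 12 receptors, 5 of 14 inhibitors and 3 of 8 effectors, where 19.1% of all genes were called. The 30 genes tested and not called had log2 fold changes of -3.43 to 4.32 with DESeq2 adjusted p of 0.070 to 0.98. By level, 30 of the 54 matched genes had 1 TPM or more in all 6 libraries, 18 in some of them, and 6 in none.

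The number in the name of each library, which is below 40 for SF replicate 1 and PF replicates 1 and 2 and above 40 for the others, may mark a series of preparation, which the labels do not state. Each set compares a lone library with the rest, SF replicate 1 with PF replicates 1 and 2 below 40, and SF replicates 2 and 3 with PF replicate 3 above 40. Since 17 of the 18 called genes do not overlap between the groups, their direction within the sets is fixed, and only sizes are given. Among libraries below 40, log2 ratios of mean TPM were 0.89 for *FZD1* to 2.29 for *ZNRF3* in the 6 genes higher in SF, and among those above 40 they were 0.90 for *WNT2B* to 2.23 for *FZD1*. Of the 12 genes lower in SF, *RSPO1* differed most between the sets, with -4.53 below 40 and -1.08 above. *DKK2*, with few counts in SF, ran the other way, with -3.66 and -6.56, as did *TCF7L1*, with -1.85 and -2.61. The fall was smaller above 40 for the other 10, among them *RSPO2* with -3.64 and -1.26, *RNF43* with -2.24 and -0.85, and *WNT7A* with -2.48 and -2.29. *CTNNB1*, which was not called, had -0.02 below 40 and 1.03 above.

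Genes lower in SF moved in the direction of the oocyte markers, and genes higher in SF in that of the granulosa markers, whose part in the results was examined only by scaling. When the libraries were scaled to the granulosa markers, the median log2 fold change of all genes moved to -1.75, and *WNT2B*, *WNT6*, *FZD1* and *LRP5* turned to -0.71, -0.44, -0.41 and -0.13. Markers without counts in a library, such as *IHH* in PF, did not enter this scaling. Only *WNT5A* and *ZNRF3* of the 6 stayed above 0, at 0.57 and 0.19, and none of the 6 was called. All 12 genes lower in SF stayed called under this scaling. When the libraries were scaled to the 21 oocyte markers, the median of all genes moved to 2.63. The 6 higher genes then stayed called, none of the 12 lower genes was called, and *WNT3*, *SFRP1*, *RNF43*, *DVL2*, *DVL3* and *TCF7L1* turned to 0.55, 0.57, 0.21, 0.43, 1.61 and 0.0041. *WNT7A*, *RSPO1*, *RSPO2*, *FZD10*, *DKK2* and *DKK3* stayed below 0, between -2.87 for *DKK2* and -0.24 for *DKK3*. The granulosa scaling lowered the values of these genes and the oocyte scaling raised them, by unequal amounts. With oocyte markers *FZD10* moved from -3.07 to -0.26 and *WNT7A* from -2.56 to -0.63. The change in the order of the genes was not tested. Within each direction the genes that turned were those with the smaller fold changes, so turning does not set them apart from the others. The directions of all called Wnt genes hold for the RNA of the whole follicle, and which cells expressed each gene was not tested.

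**Figure D4:**
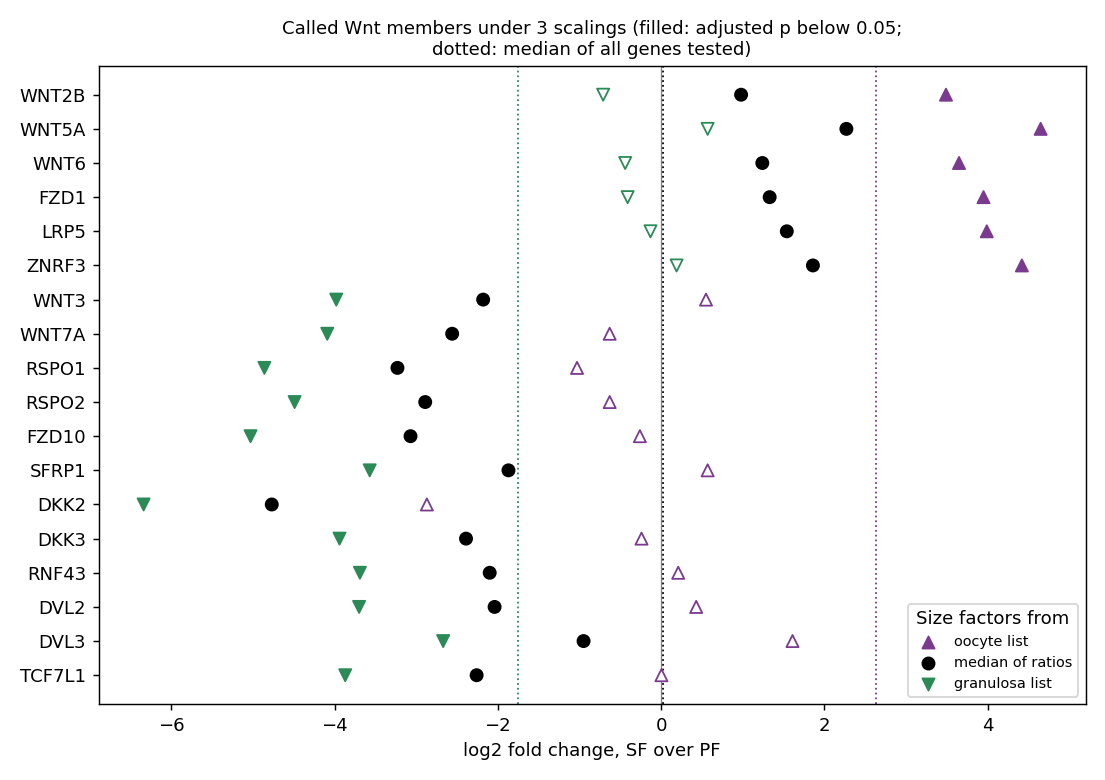
Log2 fold change of SF over PF for the called Wnt genes under 3 scalings of the libraries, by all genes, by the granulosa markers with counts in every library and by the 21 oocyte markers. Filled symbols are called at a DESeq2 adjusted p below 0.05. Dotted lines are the median of all genes tested, at -1.75, 0.02 and 2.63. The granulosa scaling shifts genes to the left and the oocyte scaling shifts them to the right, and 10 of the 18 genes lie on both sides of 0.

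Genes of the pathway outside the list were counted in 3 further lists. Of 39 other Wnt components tested, 4 were called higher and 7 lower, or 28.2% against 19.1% of all genes, and the median log2 fold change was -0.06. Those called higher were *TPBG*, *TNKS2*, *BCL9L* and *TLE2*, with log2 fold changes of 1.54 ± 0.32, 1.69 ± 0.61, 1.77 ± 0.58 and 1.50 ± 0.53 (DESeq2 adjusted p = 9.1e-05, 0.032, 0.019 and 0.031). *TPBG* passed without each of the 6 libraries in turn. *TNKS2* lost its call without PF replicates 1 or 2 or SF replicates 2 or 3 in turn (DESeq2 adjusted p = 0.056 to 0.17), *BCL9L* without PF replicates 1 or 2 or SF replicates 1 or 2 (0.063 to 0.16), and *TLE2* without PF replicate 1 or any of the SF libraries (0.062 to 0.14). With all 7 libraries *TPBG* and *BCL9L* passed (DESeq2 adjusted p = 5.0e-05 and 0.020), and *TNKS2* and *TLE2* did not (0.63 and 0.059). The 5 largest changes were all falls, 4 of them in secreted inhibitors and 1 in *FRAT1*, which binds GSK3. *SOSTDC1*, a secreted inhibitor, had 0.253, 1.35 and 1.31 TPM in SF, against 7.43, 37.3 and 7.83 TPM in PF and 0.278 TPM in PF replicate 4 (-4.04 ± 0.91, DESeq2 adjusted p = 3.2e-04, and -2.92 without PF replicate 2). *FRZB*, an SFRP-like protein, had 0.217, 0.580 and 0 TPM in SF, against 2.64, 1.35 and 8.28 TPM in PF and 1.47 TPM in PF replicate 4 (-4.03 ± 1.35, DESeq2 adjusted p = 0.021). *WIF1*, which binds Wnt ligands, had 2.68, 3.33 and 0.821 TPM in SF, against 30.6, 40.8 and 3.14 TPM in PF and 151 TPM in PF replicate 4 (-3.33 ± 0.88, DESeq2 adjusted p = 0.0024). All 3 were thus low in SF, and *WIF1* overlapped between the groups. *NOTUM*, which removes the lipid from Wnt proteins, averaged 1.60 ± 0.763 TPM in SF and 6.46 ± 1.02 TPM in PF (SD, n = 3 each), with a log2 fold change of -1.97 ± 0.60 (DESeq2 adjusted p = 0.0098). *FRAT1* averaged 4.80 ± 0.828 TPM in SF and 20.7 ± 12.9 TPM in PF (SD, n = 3 each), with a log2 fold change of -1.94 ± 0.59 (DESeq2 adjusted p = 0.010). *FRZB* lost its call when PF replicate 1, PF replicate 3 or SF replicate 1 was left out (DESeq2 adjusted p = 0.055, 0.25 and 0.081), with fold changes of -2.78 without PF replicate 3 and -5.28 without SF replicate 2. The calls of *WIF1*, *NOTUM* and *FRAT1* ended without PF replicate 2 (DESeq2 adjusted p = 0.056), without PF replicate 3 (0.060), and without PF replicate 1 or 2 (0.079 and 0.10). With all 7 libraries *NOTUM* and *FRAT1* did not pass (0.40 and 0.20).

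Of 31 noncanonical Wnt genes tested, 4 were called higher and 2 lower in SF, and 19.4% called is close to the 19.1% of all genes. *ROR2*, a receptor for Wnt5a, had 73.8, 92.8 and 82.8 TPM in SF, against 38.5, 28.2 and 15.7 TPM in PF and 68.7 TPM in PF replicate 4. All SF libraries lay above all 4 PF libraries (1.74 ± 0.36, DESeq2 adjusted p = 7.3e-05). *INVS* and *ANKRD6*, which act in the planar cell polarity branch, had log2 fold changes of 1.16 ± 0.37 and 0.97 ± 0.34 (DESeq2 adjusted p = 0.013 and 0.027). *DAAM2*, a formin that binds Dishevelled, had 1.59, 2.09 and 1.28 TPM in SF, against 9.61, 8.98 and 4.51 TPM in PF and 1.87 TPM in PF replicate 4 (-2.09 ± 0.40, DESeq2 adjusted p = 1.5e-05). *PRKCA*, a protein kinase C, had 10.7, 13.6 and 1.57 TPM in SF, against 89.3, 57.3 and 23.5 TPM in PF and 20.9 TPM in PF replicate 4 (-2.03 ± 0.64, DESeq2 adjusted p = 0.013). None of these 5 overlapped between SF and PF replicates 1 to 3. The *ROR2* and *DAAM2* calls held without each of the 6 libraries in turn. *PRKCA* lost its call without PF replicate 1 or 2 (DESeq2 adjusted p = 0.13 and 0.063), *INVS* without SF replicate 1 (0.073), PF replicate 1 (0.067) or PF replicate 2 (0.089), and *ANKRD6* without any of the libraries except PF replicate 3 (0.069 to 0.13). With all 7 libraries *DAAM2* passed (DESeq2 adjusted p = 0.033) and the other 4 did not (0.051 to 0.19).

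Of 18 known target genes of the pathway tested, 2 or 11.1% were called, both lower in SF, where 19.1% of all genes were called. The median log2 fold change of the 18 genes was 0.41, so the list as a whole did not fall. *TWIST1*, a transcription factor, had 9.20, 9.67 and 1.69 TPM in SF, against 61.7, 31.3 and 26.7 TPM in PF and 1.64 TPM in PF replicate 4 (-2.44 ± 0.67, DESeq2 adjusted p = 0.0036). *FGF9*, a growth factor, had 5.47, 5.83 and 11.2 TPM in SF, against 31.7, 27.3 and 19.2 TPM in PF and 7.16 TPM in PF replicate 4 (-1.62 ± 0.59, DESeq2 adjusted p = 0.034). SF lay below PF replicates 1 to 3 in both genes, and PF replicate 4 lay near SF. The *TWIST1* call ended without PF replicate 1 (DESeq2 adjusted p = 0.055). The *FGF9* call held only without SF replicate 3 and ended without each of the other 5 libraries (0.063 to 0.16). With all 7 libraries neither gene passed (0.20 each).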

How the data were processed

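Complementary DNA of pooled whole follicles was made with SMART-Seq v4, a kit without strand marking. Trim Galore and Salmon are named in the processing notes of the submitters. The authors quantified reads against the ARS-UCD1.3 transcriptome and, per the file headers, deposited for each RefSeq transcript an estimated count and a TPM. Salmon divides reads between similar transcripts, and the reads carry no molecular identifiers. Standard errors come from the spread between libraries.

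Groups and replicate numbers came from the sample titles. Of 76123 transcripts, 50205 (66%) were matched by accession to genes of a RefSeq table of ARS-UCD2.0, which was used for names alone, so no coordinates are given. Unmatched transcripts, with 9.71% to 10.7% of the counts of a library, were left out. For each gene the TPM were summed, and the estimated counts were summed and rounded. Totals were 18788105 to 23764615 counts per library. No pair of libraries of the same group had counts that agreed within sampling noise, and pairs across the groups were not checked.

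SF was compared with PF replicates 1 to 3 with DESeq2 1.42.0 (Wald test, R 4.3.3), calling genes at an adjusted p below 0.05 over all genes. Alternatives were edgeR 4.0.16, limma 3.58.1 with an intensity trend on log2(TPM + 1) or log2(TPM + 0.1), TMM factors, size factors from marker lists, a minimum of 10 counts in at least 3 libraries, a transcript length offset, all 7 libraries, a replicate block, the library number split at 40 as a covariate and each of the 6 libraries left out. Python 3.11.15 made tables and plots. The main DESeq2 fit and the edgeR fit were run on simulated data, with the outcome not given here, and the other fits were not. Values of every library are given for each called member and for the 3 members of each role with the highest mean TPM, and up to 5 called genes of each further list are named by largest fold change among those with a mean of 1 TPM or more. Members, lists and this rule were chosen with earlier results of these data known. *LRP6*, *AXIN2*, *WNT5B*, *FZD7*, *DVL1*, *LEF1*, *WNT4*, *WNT9A* and *WNT11*, and in the further lists *TPBG*, *TNKS2*, *BCL9L* and *TLE2*, were described by library or fold change after their values were seen. Among marker lists of other cells, 2 of 12 stromal fibroblast, 2 of 6 theca, 0 of 6 endothelial, 2 of 8 smooth muscle or pericyte, 1 of 4 immune, 0 of 1 erythroid and 1 of 5 surface epithelium genes were called.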

Additional observations from a re-analysis of the deposited data

Results flagged for a closer look

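Within the 4 PF libraries, 1 library lay far from the other 3 for 8 of the 50 Wnt genes examined in this way (16.0%). The same was found for 2460 of 15379 genes in all (16.0%), where chance flags about 1 in 20 in normally distributed values, so the share among the Wnt genes is that of the background. PF replicate 4 was the high library for 4 of them. In it *SFRP2* had 1217 TPM, against 0 to 0.828 TPM in the other PF libraries, *WNT11* had 56.9 TPM against 3.30 to 4.56 TPM, *CTNNB1* had 466 TPM against 209 to 225 TPM, and *WNT2* had 1.22 TPM against 0 to 0.063 TPM. The 14 stromal fibroblast markers summed to 6372 TPM in that library and 449 to 645 TPM in the other PF libraries, and their part in these values was not tested. PF replicate 1 was high for *FZD2* at 8.06 TPM, against 0.445 to 0.597 TPM, for *SFRP5* at 2.73 TPM, against 0 TPM, and for *WNT4* at 2.54 TPM, against 0 TPM. *PORCN* had 9.46 TPM in PF replicate 2, against 2.75 to 3.25 TPM in the other PF libraries.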

How the results depend on the processing

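The counts of calls (2876 genes, of the Wnt genes 6 higher and 12 lower in SF) depended on the test and the scaling. edgeR called 0 genes, with adjusted p of 0.052 to 0.15 for the 18 Wnt genes (unadjusted 8.3e-04 to 0.035). On log2(TPM + 1) limma called 792 genes, 0 Wnt genes higher and 5 lower, and on log2(TPM + 0.1) 2 genes and no Wnt gene (0 higher, 0 lower). With all 7 libraries there were 858 calls, 4 Wnt genes higher and 5 lower, and 7 of the 18 calls were kept. Scaling to granulosa markers gave 7933 calls (0.895% of them higher in SF, against 42.6%), 0 Wnt genes higher and 22 lower. Scaling to oocyte markers gave 9421 calls (99.6% higher), 26 Wnt genes higher and 0 lower. TMM factors (2797 calls), the count minimum (2599) and the length offset (2925) kept all 18 calls, and the library number split at 40 as a covariate (2940) kept 16. Among the genes of the further lists, the covariate ended the calls of *FRAT1*, *ANKRD6* and *FGF9* (DESeq2 adjusted p = 0.079, 0.053 and 0.080), and the count minimum ended that of *FGF9* (0.069). TMM gave 48.0% higher. Leaving out 1 library gave 1887 to 3947 calls, 3 to 7 Wnt genes higher and 7 to 14 lower, the lowest without PF replicate 2 for all genes and for those lower in SF and without SF replicate 2 for those higher. In all, 8 of the 18 calls held in each of these 6 fits (*WNT3*, *RSPO2*, *FZD10*, *LRP5*, *DKK3*, *DVL2*, *DVL3* and *TCF7L1*).

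Among the called Wnt genes, *LGR4*, *AXIN1*, *GSK3B*, *CTNNB1* and the genes of the further lists named by largest fold change, signs turned under the marker scalings. With granulosa markers these were *WNT2B* (-0.71), *WNT6* (-0.44), *FZD1* (-0.41), *LRP5* (-0.13), *LGR4* (-1.41), *AXIN1* (-1.52), *GSK3B* (-1.36), *CTNNB1* (-1.03), *ROR2* (-0.05), *INVS* (-0.58) and *ANKRD6* (-0.84). With oocyte markers these were *WNT3* (0.55), *SFRP1* (0.57), *RNF43* (0.21), *DVL2* (0.43), *DVL3* (1.61), *TCF7L1* (0.0041), *NOTUM* (0.26), *FRAT1* (0.88), *DAAM2* (0.51), *PRKCA* (0.17) and *FGF9* (1.40). Values of other genes under these scalings, among them *TPBG*, *TNKS2*, *BCL9L* and *TLE2*, are not given here, and their signs may also have turned. *AXIN1* ranged from -0.05 to 0.89 with 1 library left out. These scalings take the markers as constant, and the cause of the other changes was not tested.

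Whether the replicate numbers pair the samples is not stated. Deviations of same-numbered libraries from their group means correlated by 0.26, -0.04 and 0.40, and those of other-numbered libraries by -0.43 to 0.27. These few mixed values cannot settle it. With the replicate block 4077 genes were called, and 8 Wnt genes were higher and 14 lower, with all 18 calls kept. With it *CTNNB1* passed (0.82, DESeq2 adjusted p = 0.018), and *NOTUM* and *FGF9* did not (0.052 and 0.074).

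Precision is limited by 3 libraries a group, by unmatched transcripts and, for genes such as *DKK2*, *WNT4* and *SFRP5*, by few counts.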
